A study of Mus musculus with 13 samples.

Results

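The levels of 10 genes of the Hippo pathway were compared in mouse basal cell carcinoma (BCC), namely the transcriptional effectors Yap1 and Wwtr1 (Yap and Taz), the DNA-binding factors Tead1, Tead2, Tead3 and Tead4, the TEAD cofactor Vgll3, and the genes Ccn1, Amotl2 and Lats2, which are known as targets of the pathway. They were chosen by name as the rows of the gene table with these symbols. All 10 were found among the 21100 genes of the table, and all 10 were among the 14390 that had enough reads to be tested. They were picked by symbol with no limit on their level or their difference between groups, though earlier results of these data were known at the time.

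The study compared the genetically engineered tumor, GEM-BCC, with the transplantable tumor derived from it, Tp-BCC, by sequencing poly(A) RNA of whole tumors. The 9 GEM-BCC tumors (GEM1 to GEM9) arose in the skin of 7 female Ptch1+/- K14-CreER2 p53fl/fl mice after 3 injections of 300 µg tamoxifen and 4 Gy of X-rays, with GEM2 and GEM3 from 1 mouse and GEM7 and GEM8 from another. The 4 Tp-BCC tumors (TP1 to TP4) grew in 4 female Ptch1+/-p53fl/fl mice, each given 2000000 tumor cells under the skin of the right flank. The labels call these GEM-BCC cells, and the study's methods add that later Tp-BCC generations were seeded from the generation before. Every mouse in the comparison thus carried 1 mutant copy of Ptch1 and floxed p53, and Cre, driven by the keratin 14 promoter and switched on by tamoxifen, was present in the GEM-BCC mice and absent from the recipients. All 4 Tp-BCC tumors descend from a single GEM-BCC tumor, so their spread is that of 1 tumor line in 4 hosts. GEM-BCC libraries form batch 1 and Tp-BCC libraries batch 2 in the labels, so model and batch cannot be told apart in anything below.

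The Hippo pathway is a chain of kinases that senses cell contact, polarity and tension. Its last kinases, Lats1 and Lats2, phosphorylate Yap and Taz and keep them out of the nucleus. When the kinases are inactive, Yap and Taz enter the nucleus, bind TEAD factors on DNA and switch on growth genes such as Ccn1, together with genes that damp the pathway, such as Amotl2 and Lats2. In skin the pathway is known for its part in the proliferation of basal keratinocytes. Much of it acts on proteins, through phosphorylation and localization, which mRNA levels do not record.

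TEAD factors are known to bind the letters GGAATG, which read CATTCC from the other strand. Promoter sequences of RefSeq (mouse assembly GRCm38.p6) were found for 8 of the 10 genes, all but Tead1 and Tead4. The most upstream start site of each gene was used, with the 250 bases before it. These letters occurred in either orientation before the start of 6 of the 8 genes, and in 14.4% of the 27025 genes with such a sequence when all their start sites were counted. They began 141 bases before the start of Yap1, 136 before Wwtr1, 182 before Tead3, 63 before Vgll3, 103 before Ccn1 and 65 before Amotl2, and were not found before Tead2 or Lats2. A match of 6 letters is a description of the sequence and not a binding site. The stretches of 2 target genes and of the 2 differing TEAD genes with a promoter sequence are shown 5′ to 3′ on the gene's strand, with the motif in capitals. A target promoter can so be set beside those of Tead3, which holds the letters, and Tead2, which does not.
Ccn1, chr3:145649986-145650235, minus strand: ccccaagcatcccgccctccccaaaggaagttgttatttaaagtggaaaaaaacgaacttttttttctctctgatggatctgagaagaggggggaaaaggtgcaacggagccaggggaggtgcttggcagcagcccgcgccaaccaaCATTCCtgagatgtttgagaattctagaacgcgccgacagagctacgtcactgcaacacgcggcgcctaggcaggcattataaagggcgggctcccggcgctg
Amotl2, chr9:102717554-102717803, plus strand: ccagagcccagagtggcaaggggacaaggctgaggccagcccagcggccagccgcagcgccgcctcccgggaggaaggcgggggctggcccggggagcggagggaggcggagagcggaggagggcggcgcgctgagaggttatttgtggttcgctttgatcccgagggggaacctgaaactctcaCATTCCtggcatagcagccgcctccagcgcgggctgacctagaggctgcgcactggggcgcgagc
Tead3, chr17:28350806-28351055, minus strand: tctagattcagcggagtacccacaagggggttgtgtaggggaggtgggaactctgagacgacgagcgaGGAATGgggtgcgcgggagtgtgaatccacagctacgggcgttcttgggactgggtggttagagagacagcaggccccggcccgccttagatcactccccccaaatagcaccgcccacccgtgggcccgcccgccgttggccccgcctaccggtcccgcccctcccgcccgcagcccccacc
Tead2, chr7:45215542-45215791, plus strand: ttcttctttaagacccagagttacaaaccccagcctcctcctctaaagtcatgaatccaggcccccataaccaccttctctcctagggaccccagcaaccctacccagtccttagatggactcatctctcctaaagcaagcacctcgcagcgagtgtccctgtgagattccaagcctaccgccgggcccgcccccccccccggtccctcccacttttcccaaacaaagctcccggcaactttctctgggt

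Levels are given as log2 CPM, where CPM is a gene's count scaled to library size with TMM factors and 1 log2 unit is a doubling. Libraries held 28075317 to 32629102 counts for GEM-BCC and 15388027 to 17494912 for Tp-BCC. Even the scarcest of the 10 genes, Tead4, was counted 47 to 169 times per GEM-BCC tumor and 117 to 208 times per Tp-BCC tumor, so none was limited by detection. The Tp-BCC libraries fell into pairs before any gene was compared. Across genes, the deviation of a tumor from the others followed the GC content of the transcripts with a Spearman rho of -0.39 in TP1 and -0.473 in TP3, but of 0.593 in TP2 and 0.59 in TP4. Among the GEM-BCC tumors GEM1 stood apart with 0.364, against -0.311 to -0.15 in the others. TP1 and TP3 also had the closest counts of any pair within a model, with a chi-square per degree of freedom of 13.1, where 1 is sampling noise. The next closest pair, TP2 and TP4, was at 75.7, and the farthest pair within a model at 478. TP1 and TP3 were still counted as separate tumors. Many results are therefore also given without TP2 and TP4, or after removing each tumor's trend with GC content. As checks of the tissue, the basal keratins were abundant in every tumor, with Krt5 at 4680 to 10692 CPM in GEM-BCC against 3726 to 10347 in Tp-BCC. Trp53 was read at 29.9 to 61.7 CPM in GEM-BCC against 19.8 to 30.4 in Tp-BCC, counts that do not separate the floxed exons from the rest of the gene.

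The models differed in 3 of the 4 TEAD genes and not detectably in the effectors. Tead2, Tead4 and Tead3 were higher in Tp-BCC, by 3.21-, 2.81- and 1.78-fold, while Yap1, Wwtr1, Tead1, Vgll3, Ccn1, Amotl2 and Lats2 did not pass the test. Thus 3 of the 10 genes differed at an adjusted p under 0.05 by edgeR's quasi-likelihood test, which 19.4% of all tested genes did. All 3 were higher in Tp-BCC, as were 11.1% of tested genes, and 0 were lower, against 8.35% of tested genes. At an unadjusted p under 0.05, 4 of the 10 were higher, beside 18.4% of tested genes, and 1, Lats2, was lower, beside 16.1%. DESeq2 called 4, with Lats2 the lower one, and 26% of all genes. With an absolute log2 fold change above 2 also required, the edgeR test called 0 of the 10, with or without adjustment of the p-value, and 5.57% of all genes. The median log2 fold change of the 10 genes was 0.21, beside -0.03 over all tested genes.

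**Figure D1:**
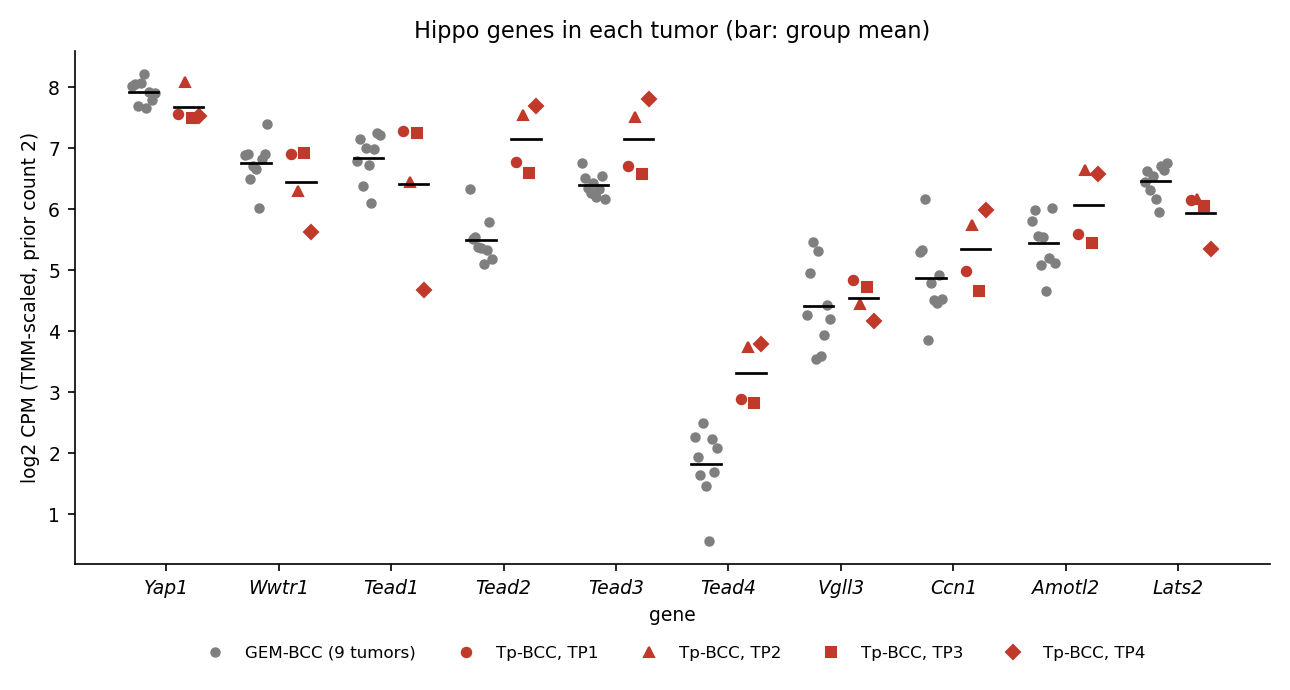
Level of each Hippo gene in each tumor, as log2 CPM on the vertical axis. Grey points are the 9 GEM-BCC tumors, red symbols the 4 Tp-BCC tumors and black bars the group means. All 4 Tp-BCC tumors lie above all GEM-BCC tumors for Tead2 and Tead4, and TP4 lies far below the others for Tead1.

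Of the effectors, neither passed the test. Yap1, the main effector of the pathway, was at 7.66, 7.93 and 8.22 log2 CPM in GEM-BCC (lowest, median and highest of 9). In Tp-BCC it was at 7.57, 8.09, 7.50 and 7.52 in TP1 to TP4. TP2 sat within the upper GEM-BCC values while the other 3 Tp-BCC tumors lay just under the lowest, so the groups overlapped, and the log2 fold change was -0.25 ± 0.18 (SE, n = 9 and 4, edgeR adjusted p = 0.347). It was -0.41 (edgeR adjusted p = 0.19) without TP2 and TP4 and -0.14 (adjusted p = 0.505) with the GC trend removed. Wwtr1, which encodes Taz, the paralog of Yap, was at 6.03, 6.83 and 7.39 in GEM-BCC. TP1 to TP4 were at 6.91, 6.30, 6.93 and 5.63, with TP1 and TP3 inside the upper part of the GEM-BCC range and TP4 below all GEM-BCC tumors. Its log2 fold change was -0.26 ± 0.26 (SE, edgeR adjusted p = 0.501) and became 0.21 (adjusted p = 0.505) once the GC trend was removed. Without TP2 and TP4 it was 0.12 (edgeR adjusted p = 0.784), so the data give Wwtr1 no direction.

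The balance of the effectors can be read within a tumor, without scaling between libraries. The log2 ratio of Yap1 to Wwtr1, per length of transcript, was 1.34 ± 0.34 (SD, n = 9) in GEM-BCC. In Tp-BCC it was 0.83, 1.96, 0.74 and 2.06 in TP1 to TP4. TP1 and TP3 lay low in the GEM-BCC range of 0.68 to 1.81 and TP2 and TP4 above it. The means differed by 0.05 (exact 2-sided permutation test over every split of the tumors, p = 0.852), without TP1 and TP3 by 0.67 (exact permutation p = 0.0364), and without TP2 and TP4 by -0.56 (exact permutation p = 0.0727), so its direction depends on the pair of tumors. After removal of the GC trend the 4 Tp-BCC ratios closed up to 0.94 to 1.23, lower than the GEM-BCC mean by a log2 difference of -0.38 (exact permutation p = 0.0951).

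TEAD factors give Yap and Taz their contact with DNA, and 4 genes encode them. Tead2 was at 5.11, 5.38 and 6.33 log2 CPM in GEM-BCC, the highest value being that of GEM1. TP1 to TP4 were at 6.78, 7.55, 6.60 and 7.69. Every Tp-BCC tumor lay above every GEM-BCC tumor, and TP2 and TP4 were higher than TP1 and TP3. In CPM, GEM-BCC tumors had a median of 41.6 and Tp-BCC tumors 110, 187, 96.7 and 207. The log2 fold change was 1.68 ± 0.25 (SE, n = 9 and 4, edgeR adjusted p = 0.000304). It was 1.77 without GEM1, 1.15 (adjusted p = 0.0119) without TP2 and TP4, and 1.35 (adjusted p = 2.69e-05) after removal of the GC trend. In that last scale the Tp-BCC tumors ran from 6.86 to 7.05 and the GEM-BCC tumors from 5.18 to 6.13. Tead2 was past the threshold in every fit made.

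Tead4, the scarcest of the 4, was at 0.57, 1.93 and 2.50 in GEM-BCC. It reached 2.88, 3.75, 2.82 and 3.78 in TP1 to TP4, again with no overlap and with TP2 and TP4 on top. The log2 fold change was 1.49 ± 0.33 (SE, edgeR adjusted p = 0.00622), and 1.14 (adjusted p = 0.0115) after removal of the GC trend. Without TP2 and TP4 the difference was 0.96 and the edgeR adjusted p 0.143, and with the GC trend removed as well it was 1.13 (adjusted p = 0.0903). TP1 and TP3 still lay above every GEM-BCC tumor.

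Tead3, the best expressed TEAD gene per length of transcript, was at 6.17, 6.35 and 6.76 in GEM-BCC, and at 6.71, 7.51, 6.57 and 7.81 in TP1 to TP4. TP2 and TP4 lay above all GEM-BCC tumors, but TP1 and TP3 lay just under GEM1, the highest of them. The log2 fold change was 0.84 ± 0.22 (SE, edgeR adjusted p = 0.015). It was no longer past the threshold without TP2 (0.71, adjusted p = 0.0695), without TP4 (0.53, adjusted p = 0.0779) or without both (0.23, adjusted p = 0.398). After removal of the GC trend all 4 Tp-BCC tumors were at 6.84 to 7.02, above the 6.28 to 6.58 of GEM-BCC, with a smaller log2 fold change of 0.47 (adjusted p = 0.00549), which was 0.41 (adjusted p = 0.0594) without TP2 and TP4.

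Tead1 split the Tp-BCC tumors. It was at 6.11, 6.99 and 7.25 in GEM-BCC and at 7.29, 6.44, 7.24 and 4.67 in TP1 to TP4. TP1 was the highest of all 13 tumors, TP3 was among the highest, TP2 was low in the GEM-BCC range and TP4 lay below every other tumor, at 25.4 CPM against 69.0 in the lowest GEM-BCC tumor. The log2 fold change over all tumors was -0.18 ± 0.36 (SE, edgeR adjusted p = 0.756). Without TP1 and TP3 it was -1.07 (adjusted p = 0.0476) and without TP2 and TP4 0.37 (adjusted p = 0.365). Removing the GC trend left the low value of TP4 in place, at 5.01.

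In these bulk tumors, fewer cells of a type and less RNA per cell cannot be told apart. Markers of some other cell types moved with the model and so with Tead2, Tead3 and Tead4, and those of others overlapped between models. Beside the counts of called markers below, 11.1% of all tested genes were higher in Tp-BCC and 8.35% lower. The summed level of 10 endothelial markers was 114 to 288 CPM in GEM-BCC against 320 to 397 in Tp-BCC, with 3 of 10 higher. Adipocyte markers summed to 0.797 to 5.45 CPM in GEM-BCC against 17.3 to 252 in Tp-BCC, with 5 of the 5 tested higher. Macrophage markers summed to 202 to 439 CPM and to 433 to 644, with 2 of 10 higher. The study's flow cytometry, which counts cells and not RNA, instead found a lower percentage of tumor-associated macrophages in Tp-BCC. Suprabasal keratinocyte markers summed to 145 to 531 CPM in GEM-BCC against 58.6 to 102 in Tp-BCC, with 2 of 7 lower. Basal keratinocyte and BCC markers overlapped, at 12070 to 18484 and 9189 to 21801 CPM, as did fibroblast markers, at 12535 to 49284 and 16126 to 29084, of which 4 of 10 were higher and 2 lower. Blood markers summed to 30.6 to 322 CPM and to 38.6 to 115, with 2 of 3 tested lower. Skeletal muscle markers summed to 2.16 to 7.22 CPM in GEM-BCC against 3.50 to 132 in Tp-BCC, highest in TP4. None of these marker sets was at 0 in any group, and their part in the TEAD differences was not tested.

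Because the 4 TEAD proteins bind the same letters, the make-up of the TEAD pool was also compared. Each gene's CPM was divided by the length of its longest transcript and expressed as a share of the sum of the 4, so that the shares do not depend on how libraries are scaled. In GEM-BCC the pool was 53.5% ± 3.6 Tead3, 23.7% ± 3.41 Tead2, 20.8% ± 4.6 Tead1 and 2.08% ± 0.69 Tead4 (SD, n = 9). This order rests on the division by length. By mean CPM alone Tead1 led in GEM-BCC at 119, before Tead3 at 84.8 and Tead2 at 46.8. Tead2 took 36.8%, 41.3%, 35.5% and 40.9% in TP1 to TP4, all above the GEM-BCC maximum of 31.5% in GEM1. The share rose by 15 percentage points (exact 2-sided permutation test over every split, p = 0.0014, the smallest it can give, adjusted over the 4 shares p = 0.00559), and by 14.7 with the GC trend removed. This share restates the level of Tead2 and is not separate evidence. The 4 shares of a tumor add up to the whole, so a rise of Tead2 lowers the others. The tests of the 4 shares are thus not independent of each other. Tead1 took 17.8%, 6.52%, 18.9% and 1.71%, so that TP1 and TP3 lay within the GEM-BCC range of 14.8% to 28.3% and TP2 and TP4 below it. The mean share of Tead1 was lower by 9.54 points (exact permutation p = 0.0224, adjusted p = 0.0378), and by 2.41 points without TP2 and TP4 (adjusted p = 0.473). Tead3 took 42.7%, 49.0%, 42.7% and 54.4%, a mean 6.3 points lower (exact permutation p = 0.035, adjusted p = 0.0378), though its own level was higher in Tp-BCC. These tests count tumors of 1 mouse singly, and over mouse means the differences of Tead1, Tead3 and Tead4 each had an adjusted p of 0.0545 (exact permutation), past the threshold no longer, while that of Tead2 kept its call. Without division by length the Tead3 share was 1.48 points higher instead (exact permutation, adjusted p = 0.708). Tead4 took 2.70% to 3.25%, within the GEM-BCC range of 1.04% to 3.31%, and its mean was higher by 0.869 points (exact permutation p = 0.0378, adjusted p = 0.0378) and not past the threshold with the GC trend removed (adjusted p = 0.0559).

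**Figure D2:**
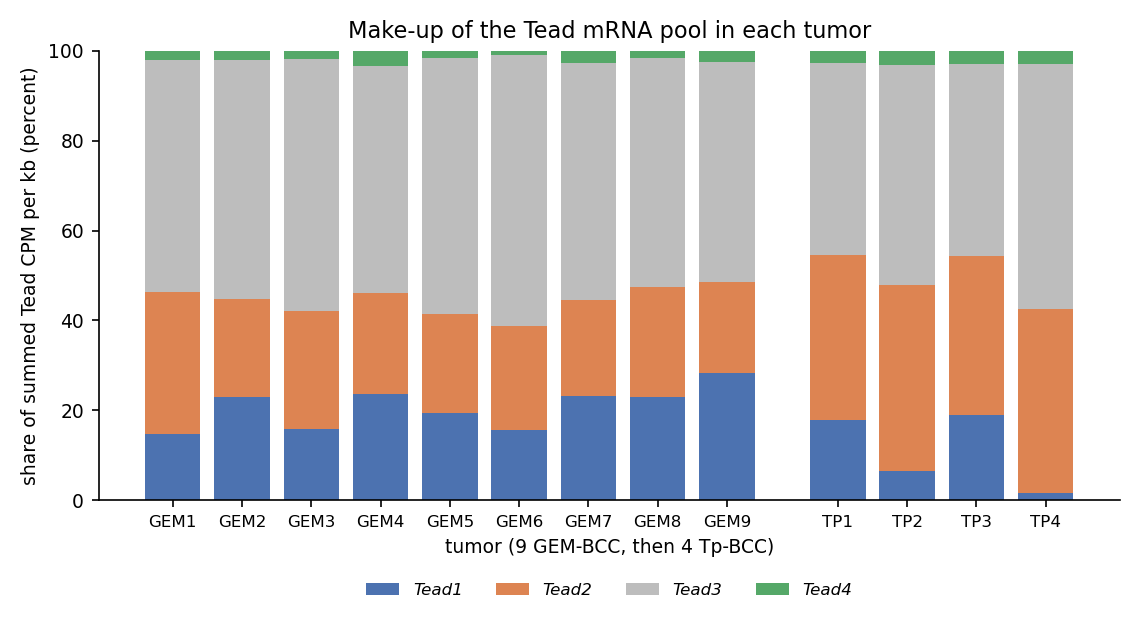
Share of each TEAD gene, in percent on the vertical axis, in the summed CPM per kilobase of Tead1 to Tead4, with 1 bar per tumor. The Tead2 segment covers 35.5% to 41.3% in the 4 Tp-BCC tumors and 20.1% to 31.5% in the 9 GEM-BCC tumors, and Tead1 shrinks to 6.52% in TP2 and 1.71% in TP4.

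Per kilobase of transcript, the order of the 10 genes in GEM-BCC ran from Yap1 (mean log2 CPM per kilobase 5.87 ± 0.18, SD, n = 9) through Tead3 (4.92), Wwtr1 (4.52), Lats2 (4.08), Ccn1 (3.86), Tead2 (3.74), Tead1 (3.53) and Amotl2 (3.33) to Vgll3 (1.60) and Tead4 (0.16). Only Yap1 was clear of its neighbour, and the other 8 neighbouring pairs had overlapping ranges. In Tp-BCC the order opened with Tead3 (5.68 ± 0.60, SD, n = 4), Yap1 (5.61) and Tead2 (5.39), went on through Ccn1 (4.33), Wwtr1 (4.21), Amotl2 (3.95), Lats2 (3.55) and Tead1 (3.09), and closed with Vgll3 (1.73) and Tead4 (1.68). All 9 neighbouring pairs of that order overlapped. Tead2 thus stood below Ccn1 and Wwtr1 in GEM-BCC and above both in Tp-BCC, and its range overlapped that of Ccn1 in both models.

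Vgll3, a cofactor that binds TEAD in place of Yap and Taz, varied widely among GEM-BCC tumors, from 3.54 through a median of 4.27 to 5.47 log2 CPM. All 4 Tp-BCC tumors, at 4.84, 4.44, 4.72 and 4.17, fell within that range. Its log2 fold change was -0.0027 ± 0.35 (SE, edgeR adjusted p = 0.996), and 0.53 (adjusted p = 0.28) with the GC trend removed. Without TP2 and TP4 it was 0.21 (edgeR adjusted p = 0.804).

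Among the targets, no gene passed the test. Ccn1, a secreted matrix protein and a classical Yap target, was at 3.86, 4.80 and 6.16 in GEM-BCC and at 4.98, 5.75, 4.66 and 5.98 in TP1 to TP4. All Tp-BCC values lay within the GEM-BCC range, the log2 fold change was 0.42 ± 0.36 (SE, edgeR adjusted p = 0.424), and without TP2 and TP4 it was -0.19. Amotl2, an angiomotin that holds Yap at cell junctions and is itself a target, was at 4.67, 5.54 and 6.03 in GEM-BCC. TP1 to TP4 were at 5.60, 6.64, 5.45 and 6.58, with TP2 and TP4 above all GEM-BCC tumors and TP1 and TP3 near their median. Its log2 fold change was 0.66 ± 0.28 (SE, edgeR adjusted p = 0.109). It was 0.02 (adjusted p = 0.968) without TP2 and TP4 and 1.11 (adjusted p = 0.00795) without TP1 and TP3. Lats2, the kinase that is both a brake on Yap and its target, was at 5.95, 6.54 and 6.76 in GEM-BCC and at 6.15, 6.17, 6.06 and 5.35 in TP1 to TP4. TP1, TP2 and TP3 sat at the lower end of the GEM-BCC range and TP4 below it. The log2 fold change was -0.51 ± 0.21 (SE, edgeR adjusted p = 0.094), with a DESeq2 adjusted p of 0.0432.

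**Figure D3:**
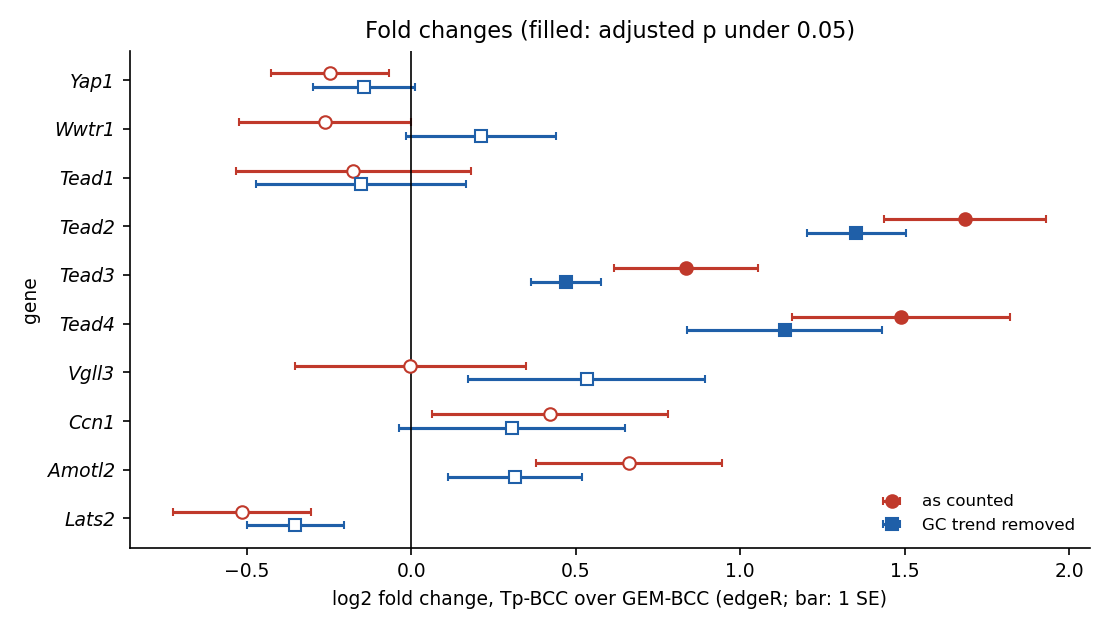
Log2 fold change of each Hippo gene, Tp-BCC over GEM-BCC, on the horizontal axis, with bars of 1 SE. Red circles are counts as deposited and blue squares the fit with the GC trend removed, and filled symbols have an edgeR adjusted p under 0.05. Tead2, Tead3 and Tead4 are filled in both fits, at 1.68, 0.84 and 1.49 and at 1.35, 0.47 and 1.14, and Wwtr1 changes sign.

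The 10 genes split by GC content in the same way as the Tp-BCC tumors did. Tead2, Tead3, Tead4 and Amotl2 have transcripts of 59.3% to 61.1% GC, and in each of them TP2 and TP4 were the highest tumors of all 13. The other 6 genes have 43.9% to 52.7% GC. In Wwtr1, Tead1 and Vgll3 TP2 and TP4 lay below TP1 and TP3, and in Ccn1 above them. Once the GC trend was removed, the SD among the 4 Tp-BCC tumors went from 0.55 to 0.09 for Tead2, from 0.60 to 0.08 for Tead3, from 0.53 to 0.11 for Tead4 and from 0.63 to 0.19 for Amotl2. For Tead1 it went only from 1.22 to 1.05, for Yap1 it was 0.28 in both, and for Vgll3 it went up from 0.30 to 0.54. In that fit the same 3 genes as before were past the threshold, and 28.6% of all tested genes were. Tead2, Tead3 and Tead4 had no overlap between models in it, as had 15.5% of all tested genes, where Tead2 and Tead4 alone (2 of 10) had none in the counts as deposited, beside 9.95% of all tested genes.

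**Figure D4:**
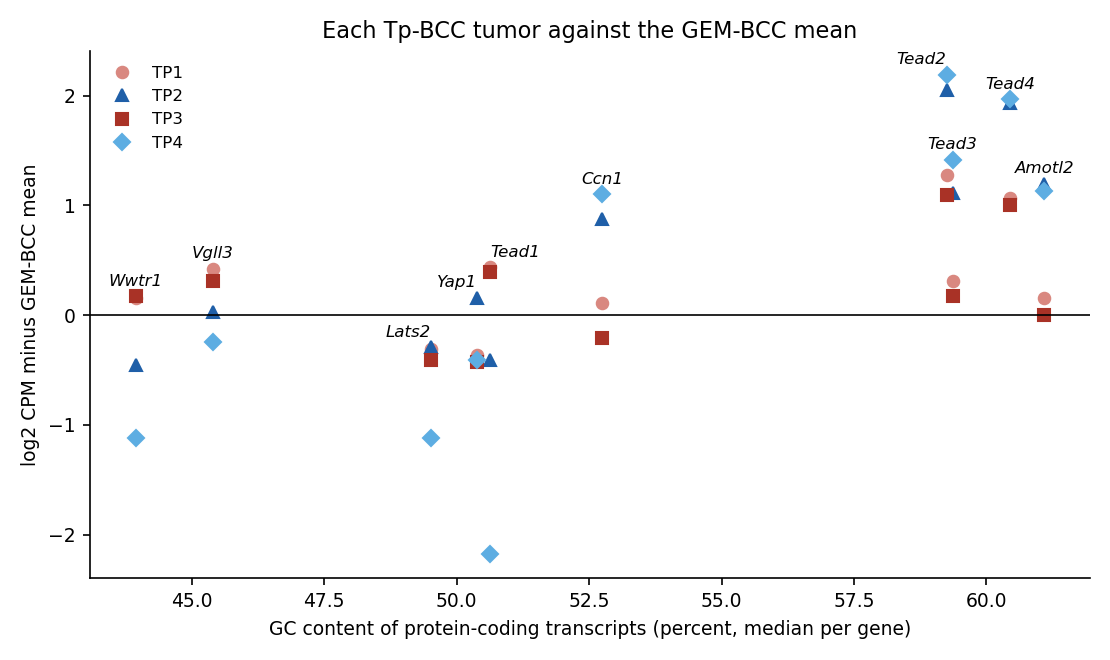
Deviation of each Tp-BCC tumor from the GEM-BCC mean, in log2 CPM on the vertical axis, against the GC content of the gene's transcripts in percent on the horizontal axis, with 1 column of 4 symbols per gene. TP2 and TP4 (blue) lie above TP1 and TP3 (red) for the 4 genes of 59.3% to 61.1% GC, while all 4 tumors lie above 0 for Tead2, Tead3 and Tead4.

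The core cassette was taken as 7 genes, Stk3 and Stk4 (the Mst kinases), their scaffold Sav1, the Lats cofactors Mob1a and Mob1b, and Lats1 and Lats2. Of these 0 passed the edgeR test, beside 19.4% of all tested genes. At an unadjusted p under 0.05 the edgeR fit gave 1, Lats2, which was lower, where 16.1% of all tested genes were lower and 18.4% higher. DESeq2 called the same gene, and 26% of all genes. The median log2 fold change of the 7 was 0.11, beside -0.03 over all genes. Mob1a had the highest, 1.17 ± 0.56 (SE, edgeR adjusted p = 0.153), and Stk4 the lowest, -0.60 ± 0.32 (SE, adjusted p = 0.196). After removal of the GC trend 2 of the 7 were past the threshold, beside 28.6% of all tested genes in that fit. Both were higher in Tp-BCC, Stk3 with a log2 fold change of 1.04 (adjusted p = 0.0046) and Sav1 with 0.74 (adjusted p = 0.0057). They were also past the threshold in the fit without TP2 and TP4, at 1.41 and 0.67. Without TP1 and TP3 these were at -0.48 and -0.10, not past it, while Stk4 and Lats1 were lower, at -1.37 (edgeR adjusted p = 0.00873) and -2.004 (adjusted p = 0.0193). Stk3, Sav1, Mob1a, Mob1b and Lats1 thus changed sign between the pairs of Tp-BCC tumors. Lats2 was lower with either pair, at -0.38 without TP2 and TP4 and -0.66 without TP1 and TP3, past the threshold in neither. Stk4 was at -0.11 without TP2 and TP4, not past it. Lats1 was at 5.18, 5.59 and 7.24 log2 CPM in GEM-BCC and between 3.25 and 6.36 in Tp-BCC (edgeR adjusted p = 0.503).

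The list of upstream regulators held polarity, junction, phosphatase and kinase genes, genes that act on Yap itself, and Amotl2. They were called about as often as genes in general by the adjusted edgeR test, but more often at an unadjusted p. Of 51 listed genes 48 were tested, with a median log2 fold change of 0.2. At an unadjusted edgeR p under 0.05, 13 were higher and 10 lower, beside 18.4% and 16.1% of all tested genes. DESeq2 called 15 of the 48, and 26% of all genes. At an edgeR adjusted p under 0.05, 3 were higher and 6 lower in Tp-BCC, beside 11.1% and 8.35% of all genes. The higher ones were Scrib, a polarity scaffold (0.93 ± 0.23, SE, edgeR adjusted p = 0.0117), the protocadherin Dchs1 (0.96 ± 0.27, adjusted p = 0.0213) and the kinase Map4k1 (1.68 ± 0.28, adjusted p = 0.000783). Map4k1 is known mainly from blood cells. The best expressed of the lower ones were Ywhaz, a 14-3-3 protein that holds phosphorylated Yap in the cytoplasm (-0.58 ± 0.17, SE, edgeR adjusted p = 0.0241), the junction scaffold Patj (-1.28 ± 0.30, adjusted p = 0.00924), Btrc, which marks Yap for degradation (-0.51 ± 0.17, adjusted p = 0.0455), and the kinase Tnik (-1.83 ± 0.42, adjusted p = 0.00749). Crb3 and Fat3 were lower as well, by log2 fold changes of -1.86 and -2.09. Map4k1, Crb3 and Fat3 were named after their values had been seen. Without TP2 and TP4, Scrib and Dchs1 were at 0.42 and 0.23 and Ywhaz at -0.51, none past the threshold, and Tnik and Fat3 lost their calls as well, at -1.24 and -1.53. Patj, Btrc, Map4k1 and Crb3 were past it there, at -1.43, -0.62, 1.15 and -2.53. With the GC trend removed Ywhaz (-0.23) and Btrc (-0.36) were not past it.

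Of the listed TEAD partners besides Yap and Taz, with Vgll3 counted again, 8 were tested and 1 passed, beside 19.4% of all tested genes. This was Pax3, a paired-box factor of neural crest and muscle precursors. It had 0 counts in 8 GEM-BCC tumors and 29 in GEM5, but 244, 170, 271 and 74 in TP1 to TP4, all 4 above GEM5. No fold is given since most GEM-BCC tumors were at 0. The edgeR adjusted p was 0.000699.

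A wider signature of 22 Yap and Taz targets, which holds Ccn1, Amotl2 and Lats2, showed no common direction. Of 21 tested, 1 was higher and 2 lower, beside 11.1% and 8.35% of all tested genes. At an unadjusted edgeR p under 0.05, 5 were higher and 5 lower, beside 18.4% and 16.1% of all tested genes. DESeq2 called 7 of the 21, and 26% of all genes. There were 11 positive and 10 negative log2 fold changes, with a median of 0.1. Ccdc80, a matrix protein, was at 7.38 to 9.07 log2 CPM in GEM-BCC against 5.02 to 6.75 in Tp-BCC, a log2 fold change of -2.02 ± 0.38 (SE, edgeR adjusted p = 0.00218). F3, which encodes tissue factor, differed by -1.15 ± 0.29 (SE, edgeR adjusted p = 0.0132), and was not past the threshold with the GC trend removed (-0.64, adjusted p = 0.0632) or without TP2 and TP4 (-0.83, adjusted p = 0.0576). Foxf2, as well as Pax3 and Ccn5, was not tested without TP2 and TP4 since too few tumors had enough counts. Foxf2, a forkhead factor of mesenchymal cells, had 0 to 17 counts in GEM-BCC and 22, 50, 31 and 28 in TP1 to TP4 (edgeR adjusted p = 0.00104). Like Pax3, Foxf2 reached the limit of 10 counts in 4 tumors only with the Tp-BCC tumors, so its call is no separate support. Of the most used reporters of Yap activity, Ccn2 was at 2.89, 3.85 and 6.66 in GEM-BCC and between 3.34 and 4.55 in Tp-BCC (-0.91 ± 0.66, SE, edgeR adjusted p = 0.346). Axl, a receptor kinase, was at 7.80 to 8.52 and 7.85 to 8.71 (0.10 ± 0.21, SE, adjusted p = 0.77). Ankrd1 had at most 2 counts in any tumor and was not tested.

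Of the 6 Ccn genes, 1 was higher and 0 lower by the edgeR test, beside 11.1% and 8.35% of all tested genes. None was lower at an unadjusted p under 0.05 or by DESeq2. The higher one was Ccn5, with 4 to 8 counts in GEM-BCC and 39, 29, 28 and 89 in TP1 to TP4 (edgeR adjusted p = 1.01e-05). Like Pax3 and Foxf2, Ccn5 reached the limit of 10 counts in 4 tumors only with the Tp-BCC tumors. Its call is therefore no separate support for the difference. Immediate early genes, which share serum as a stimulus with Ccn1, were listed beside it. Of 19 tested, 4 were higher, beside 11.1% of all tested genes. They were Klf4 (1.57 ± 0.19, SE, edgeR adjusted p = 5.72e-05), Myc (1.79 ± 0.24, adjusted p = 0.000148), Ier2 (1.03 ± 0.27, adjusted p = 0.0144) and Egr2 (1.11 ± 0.30, adjusted p = 0.018). Klf4 and Myc were past the threshold without TP2 and TP4 too, but Ier2 (0.41, edgeR adjusted p = 0.353) and Egr2 (0.98, adjusted p = 0.126) were not. By edgeR 0 were lower, beside 8.35% of all tested genes, 1 was so at an unadjusted p under 0.05, beside 16.1%, and 1 by DESeq2. Their median was 0.12, and the summed level of the list was 672 to 962 CPM in GEM-BCC against 836 to 1345 in Tp-BCC. Outside the 10 genes and without the immediate early list, 80 genes of the wider lists were tested and 14 passed. Of these 8 were lower and 6 higher. The higher ones include Pax3, Foxf2 and Ccn5, which reached the count limit only with the Tp-BCC tumors. The 14 make 17.5%, beside 19.4% of all genes.

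**Figure D5:**
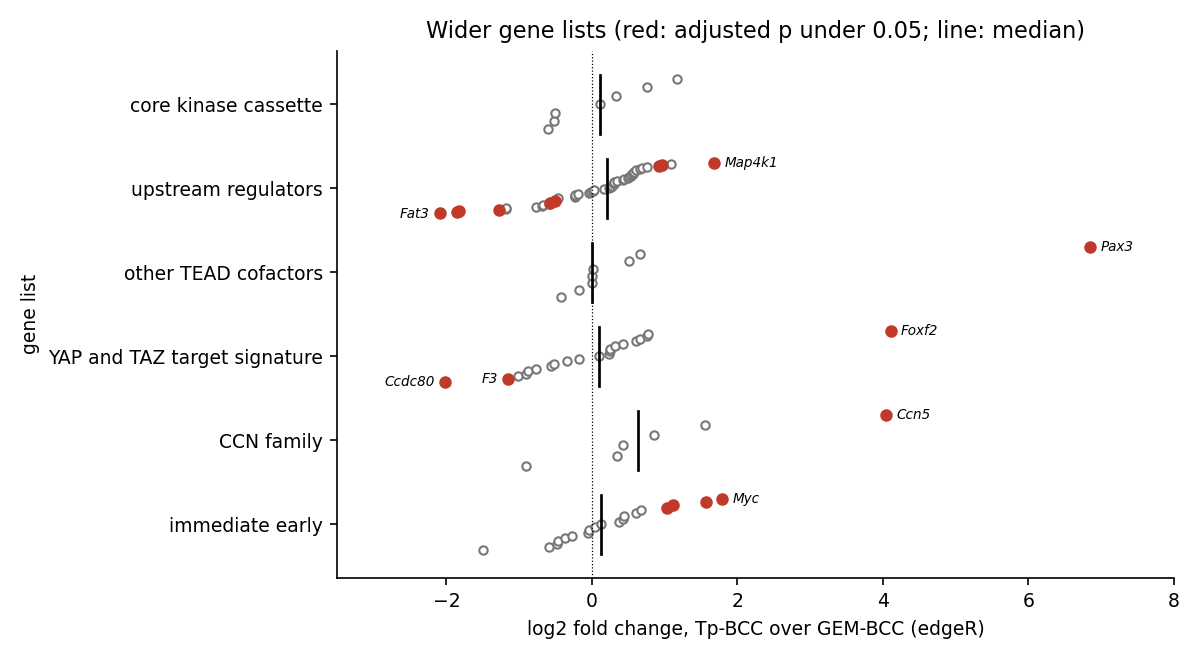
Log2 fold change, Tp-BCC over GEM-BCC, of every tested gene in 6 lists, with 1 point per gene, red for an edgeR adjusted p under 0.05, and a black line at each list's median. The medians lie between 0.0043 and 0.64, and the core kinase row holds no red point. Pax3, Foxf2 and Ccn5, nearly without counts in GEM-BCC, are drawn at their fitted values.

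Whether effectors and targets rose and fell together was asked across the 7 GEM-BCC mice, with tumors of 1 mouse averaged, in 7 relations. None passed after adjustment. The closest was that of Ccn1 with Amotl2, with a Pearson r of 0.717 (exact permutation p = 0.0696, adjusted p = 0.488), a Spearman rho of 0.893 (exact permutation p = 0.0123, adjusted p = 0.0861) and an r of 0.779 without the 2 mice farthest from the median of Ccn1. Yap1 with Wwtr1 had an r of 0.349 (exact permutation p = 0.447) and a rho of 0.0357 (exact permutation p = 0.963), and the r was -0.299 without the 2 farthest mice. Ccn1 with Ccn2, both classical targets, had an r of -0.172 (exact permutation p = 0.711) and a rho of 0.179 (exact permutation p = 0.713). That r was 0.635 without the 2 farthest mice. GEM4 had the lowest Ccn1 of the GEM-BCC tumors, 3.86 log2 CPM, and the highest Ccn2, 6.66.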

How the data were processed

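Poly(A) RNA of 13 tumors was sequenced, with 1 library per tumor. According to the authors' processing notes and methods, reads were aligned with Bowtie2 2.3.4.3 to mouse transcripts of GRCm39 and quantified per gene with RSEM 1.3.1. The deposited values are expected counts, neither normalized nor pooled, and 96.9% of them are whole numbers. Some genes lack a value in every tumor of a model, and how this arose is not given in the sources used here.

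Expected counts were rounded to whole numbers. Genes with a value in all 13 tumors (16687) that reached 10 counts in 4 or more of them (14390) entered the test, run in R 4.3.3 with edgeR 4.0.16 (TMM scaling, robust quasi-likelihood F test, no covariate), with Benjamini-Hochberg adjustment over all of them. Log2 CPM used a prior count of 2. The GC trend was a lowess curve of span 0.3, removed per tumor, with transcript GC content and length from GENCODE vM21. Scripts were tested on simulated data. Shares and ratios were compared by exact permutation. Single tumors carry counting error besides, and p-values measure the spread between tumors, of which some share a mouse.

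The genes and lists were chosen with earlier results of these data known. Named were the 10 genes, the core kinases, Ccn2, Ankrd1 and Axl, and up to 6 of the best expressed genes past the threshold in each other list. Alternatives were DESeq2 1.42.0, other scalings and filters, length or GC correction, counts summed per mouse, and tumors left out. The pairs TP2 and TP4 or TP1 and TP3 were left out after their GC trends had been seen.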

Additional observations from a re-analysis of the deposited data

Results flagged for a closer look

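In 76 groups of tumors (each named gene, each TEAD share and the Yap1 to Wwtr1 ratio within each model), 4 held a tumor separated from the nearest other by more than Dixon's limit, where chance alone flags about 1 in 20. Yap1 in TP2 was at 8.09 log2 CPM and the other Tp-BCC tumors were at 7.50 to 7.57. Lats2 in TP4 was at 5.35 log2 CPM and the other Tp-BCC tumors at 6.06 to 6.17. Mob1a in GEM3 was at 2.36 log2 CPM and the other GEM-BCC tumors at 4.36 to 6.29. Pax3 in GEM5, the only GEM-BCC tumor with any count of this gene, was at -0.146 log2 CPM and the others at the floor of -3.73.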

How the results depend on the processing

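Tead2, as a level and as a share, kept its direction and its side of the threshold under all alternatives run. Tead3 lost its call without TP2 or TP4, singly or together, and Tead4 without both. The cause was not tested. The 3 calls among the 10 genes became 1 without TP2 and TP4, with or without the GC trend, and 5 without TP1 and TP3. Over all genes the 2792 calls became 1484 without TP2 and TP4 (1556 with the GC trend removed as well), 6119 without TP1 and TP3, and 1545 to 3020 with 1 tumor left out, 1545 being without TP2 and 1836 without TP4. Calls in the wider lists went from 14 to 22 with DESeq2, 29 with the length trend removed and 32 without TP1 and TP3, and were 12 to 19 with 1 tumor left out.

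The Tead1 share difference was -19.3 points without division by length. It was -9.38 over mouse means and -2.41 without TP2 and TP4, both no longer past the threshold. With 1 tumor left out it was -12.1 to -6.36, the call being lost without GEM2, GEM5, TP2 or TP4. That of Tead3 was 1.48 without division by length, a reversal, -6.38 over mouse means and -1.83 without TP1 and TP3, both no longer past it, and -8.69 to -4.81 with 1 tumor left out, the call being lost without GEM1, GEM2, GEM3, GEM5, GEM6, TP1, TP2 or TP3. That of Tead4 lost its call at 0.817 with the GC trend removed, 0.857 over mouse means, 0.692 without TP2 and TP4, 1.05 without TP1 and TP3, and ran from 0.739 to 1.02 with 1 tumor left out, the call holding only without GEM4, GEM7 or GEM9. The log2 ratio of Yap1 to Wwtr1 passed the threshold at 0.67 without TP1 and TP3, was -0.56 without TP2 and TP4, and was -0.17 to 0.27 with 1 tumor left out. Results that did not pass the test changed sign in 26 further cases, 10 of them for Vgll3.

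No paired analysis was possible because tumor numbers only name tumors of different mice. With 4 Tp-BCC tumors from 1 tumor line, a difference that missed the threshold is not shown to be absent.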

Other observations

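GEM4 stood out in a stretch of chromosome 10 that holds Lats1 and Ccn2, which was noticed after the values of these genes had been seen. In RefSeq's gene order (GRCm38.p6, used here for neighbourhood only), 59 genes with a mean log2 CPM above 3 lie between the start of the chromosome and Med23. Their median level in GEM4 was 1.65 log2 units above the median of the other 8 GEM-BCC tumors, and 55 of the 59 were higher in GEM4 than in any other GEM-BCC tumor. The 410 such genes on the rest of the chromosome had a median of -0.15, and GEM4 was highest in 12 of them. Over the same 59 genes, the other GEM-BCC tumors deviated by -0.40 to 0.67 and the Tp-BCC tumors by -1.13 to 0.28.

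Across the last 9 genes of the stretch, all highest in GEM4, the deviation ran from 2.14 to 6.19 with a median of 3.49. Stx7 was at 8.84 log2 CPM in GEM4 and 4.68 to 5.32 in the other GEM-BCC tumors. Moxd1 was at 11.9 and at most 7.55, Ccn2 at 6.66 and at most 5.72, and Enpp1, an ectoenzyme that makes pyrophosphate, at 13.3 and at most 8.62. Med23, a Mediator subunit, was at 10.5 against 4.84 to 5.71. The next gene, Epb41l2, was at 6.59, inside the 5.79 to 6.68 of the others, as was L3mbtl3 after it. Lats1 was at 7.24 in GEM4 and 5.18 to 6.67 in the others. Without GEM4 the log2 fold change of Ccn2 was -0.33 (edgeR adjusted p = 0.68) in place of -0.91, and that of Lats1 -0.27 (adjusted p = 0.727) in place of -0.51. The study's files used here hold no measure of DNA copies, and the source of this stretch was not tested.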
